A study of Mus musculus with 8 samples.

Results

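Matricellular proteins and small leucine-rich proteoglycans were followed as 10 genes in glomerular RNA of Cd151-/- and Cd151+/+ mice. The matricellular proteins and matrix glycoproteins were *Sparc*, *Spp1*, *Tnc*, *Fn1*, *Fbln5* and *Postn*, and the proteoglycans were *Dcn*, *Bgn*, *Lum* and *Fmod*. They were chosen by name, as every row of the deposited signal table that carries 1 of these gene symbols. Of the 10 genes 9 had a row, and together they had 17 of the 25697 probes in the table, which lists 18120 symbols. No row carried the symbol *Fn1*, the gene of fibronectin, which was not analysed here.

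The mice were male FVB/N animals of 3 weeks of age, 4 Cd151+/+ and 4 Cd151-/- with homozygous deletion of *Cd151*, the gene of a tetraspanin that partners laminin-binding integrins. Each mouse gave 1 glomerular isolate and 1 Illumina MouseRef-8 v1.1 array, and mice are numbered 1 to 4 within a genotype. Per the study's methods, glomeruli were collected on magnetic beads perfused through the heart and washed on a magnet to a stated minimum purity of nearly pure glomeruli, so an isolate holds mainly podocytes, endothelial and mesangial cells. In such bulk samples fewer cells of a type and less RNA per cell cannot be told apart.

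Matricellular proteins are secreted into the matrix but build no fibre of their own. They bind integrins, growth factors and collagen, and are known for high expression in development and in injured or scarring tissue. Small leucine-rich proteoglycans have a short protein core with leucine-rich repeats, most with glycosaminoglycan chains, and they bind collagen fibrils and growth factors such as TGF-beta. In kidney, osteopontin is a known product of tubular epithelium, SPARC of podocytes, and decorin of fibroblasts.

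The targeted gene followed the labels. All 3 *Cd151* probes passed detection in every Cd151+/+ mouse and in 0 Cd151-/- mice, and the brightest, ILMN_2836710, read 14.15 to 14.62 against 4.50 to 4.69 on the normalised log2 scale. A probe counted as detected where its detection p, the share of negative-control probes at least as bright, was 0.05 or lower. Arrays detected 11291 to 12270 probes in Cd151+/+ and 11317 to 12359 in Cd151-/- mice. The inferred background, a mean per array from 59.0 to 135 intensity units, divided the arrays into a higher and a lower set. The higher set held Cd151+/+ mice 3 and 4 and Cd151-/- mice 1 and 2. The lower set held Cd151+/+ mice 1 and 2 and Cd151-/- mice 3 and 4. The labels do not name these sets as a batch, and since each holds both genotypes, values are also given within them. All 6 tested podocyte markers, among them *Podxl* and *Wt1*, were detected on all 8 arrays, while *Nphs1* and *Synpo* had no row under those symbols. Of 10 leukocyte markers 7 were tested and 6 of these, *Cd74*, *Laptm5*, *Lyz2*, *Coro1a*, *Cd52* and *Cd68*, were detected on all 8 arrays, while *Ptprc*, *Adgre1* and *Itgam* were detected on none. Parietal epithelial markers were 3 higher and 5 lower of 8 tested (median -0.03), and erythroid markers 2 higher and 4 lower of 6 (median -0.03), of which *Alas2*, the erythroid heme synthesis enzyme, had a difference of -2.57 and passed the unadjusted threshold alone. The erythroid counts include *Hbb-b1* (lower) and *Rhag* (higher), which no Cd151+/+ array detected.

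Of the 17 member probes 9, belonging to 6 genes, were detected on at least 1 array and could be tested, and 6 were detected on all 8. *Fbln5* (fibulin-5, an elastic fibre protein), *Postn* (periostin) and *Lum* (lumican) had 1 probe each and none was detected on any array. Their lowest detection p-values were 0.441, 0.160 and 0.0602. Without a detected signal no level or fold is given for these 3 genes. The other probes that no array detected were 3 for *Tnc*, ILMN_2454497, ILMN_2485085 and ILMN_1251943, as well as ILMN_2596346 for *Dcn* and ILMN_1230020 for *Fmod*.

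No member differed between genotypes at the threshold. Of 9 tested member probes 0 had a limma adjusted p of 0.05 or lower, against 5 of all 14967 tested probes, 0.0334%. The count was also 0 at an unadjusted p of 0.05, which 4.30% of all tested probes passed. In 0 of the 9 the 4 mice of one genotype lay wholly above the 4 of the other, which was so for 2.31% of all tested probes. SAM at a false discovery rate below 0.2 called 91 probes, none of a member. Taking the brightest probe of each of the 6 genes, 5 had a higher mean in Cd151-/- glomeruli and 1 a lower one, with a median log2 difference of 0.52 beside -0.0073 over all tested probes. That median was 0.31 without Cd151-/- mouse 3 and 0.75 without Cd151-/- mouse 4.

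**Figure D1:**
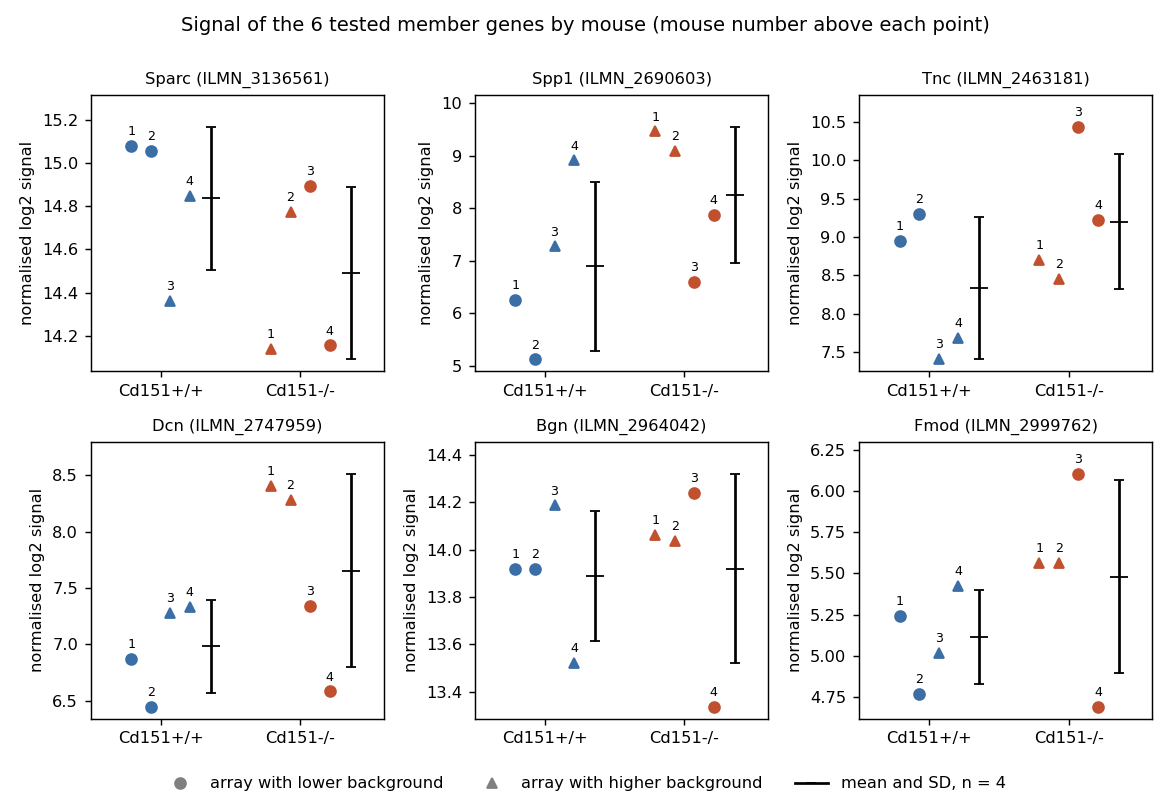
Normalised log2 signal (vertical axis) of the brightest probe of each of the 6 tested genes by genotype, 1 point per mouse (circle for the lower-background and triangle for the higher-background arrays), with the mean and SD of 4 mice per genotype. The genotypes overlap in every panel: *Spp1* reads 5.13 to 8.91 in Cd151+/+ and 6.61 to 9.46 in Cd151-/- mice, while *Bgn* has means of 13.89 and 13.92.

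*Spp1*, the gene of osteopontin, a secreted phosphoprotein that binds integrins and CD44, had the widest spread. On the normalised log2 scale its probe read 6.26, 5.13, 7.28 and 8.91 in Cd151+/+ mice 1 to 4, and 9.46, 9.09, 6.61 and 7.87 in Cd151-/- mice 1 to 4. The low readings were those of Cd151+/+ mice 1 and 2 and Cd151-/- mouse 3, the groups overlapped, and mouse 2 was the 1 Cd151+/+ animal in which the probe was not detected. The means were 6.89 ± 1.61 and 8.26 ± 1.29 (SD, n = 4 each), a difference of 1.36 (SE 0.79, 95% interval -0.37 to 3.10) or 2.57-fold. It did not pass the test (limma adjusted p = 0.918, two-sided exact permutation p = 0.229). Within the lower set the Cd151-/- mean exceeded the Cd151+/+ mean by 1.54, and within the higher set by 1.19, and in each set both Cd151-/- mice lay above both Cd151+/+ mice. The sets themselves differed by 2.22, higher minus lower. With the set as a block the difference of 1.36 had an SE of 0.41 (limma adjusted p = 0.356). Leaving out 1 mouse at a time gave differences from 0.78 without Cd151+/+ mouse 2 to 2.04 without Cd151+/+ mouse 4 (limma adjusted p = 0.720 in the latter), and weighting the arrays by their quality gave 2.68.

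Tubule markers were read beside this gene, and 0 passed the adjusted threshold. All 9 tested proximal tubule markers had a higher mean in Cd151-/- glomeruli, with a median log2 difference of 0.56, and 1 of them, *Kap* (kidney androgen-regulated protein), passed the unadjusted threshold at 1.38 (limma adjusted p = 0.918). *Lrp2* and *Gatm* were among the 9 although no Cd151+/+ array detected them. Their summed intensity was 21471, 29695, 47628 and 63228 in Cd151+/+ mice 1 to 4 against 72593, 45104, 43085 and 79580 in Cd151-/- mice 1 to 4. Cd151+/+ mice 1 and 2, lowest in *Spp1*, were also lowest in this sum. Cd151-/- mouse 4 was highest in the sum at 79580 but read 7.87 in *Spp1*, below Cd151+/+ mouse 4 at 8.91. In the lower set the marker differences ran from 0.71 (*Lrp2*) to 1.91 (*Kap*). In the higher set they ran from -0.34 (*Slc5a2*) to 0.85 (*Kap*), where *Spp1* differed by 1.19. Markers of the loop, distal tubule and collecting duct went no common way, 3 higher and 4 lower of 7 tested, with sums of 33037 to 59927 in Cd151+/+ and 30325 to 45795 in Cd151-/- mice, and *Scnn1a*, a sodium channel subunit, had a difference of -1.06 (limma adjusted p = 0.918). The part of tubule RNA in the *Spp1* difference was not tested.

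*Tnc* encodes tenascin-C, a large oligomeric glycoprotein that modulates adhesion to fibronectin. It had 6 probes, 3 of them tested. The brightest, ILMN_2463181, read 8.94, 9.29, 7.41 and 7.68 in Cd151+/+ mice 1 to 4 and 8.70, 8.45, 10.44 and 9.22 in Cd151-/- mice 1 to 4. Cd151+/+ mice 3 and 4 were the low ones and Cd151-/- mouse 3 the high one, with overlap between genotypes. The means were 8.33 ± 0.93 and 9.20 ± 0.88 (SD, n = 4 each), 0.87 apart (SE 0.51, 95% interval -0.25 to 1.99, 1.83-fold), which did not pass the test (limma adjusted p = 0.918, two-sided exact permutation p = 0.257). The second, ILMN_2463180, read 8.52, 8.67, 6.89 and 7.52 against 8.53, 8.18, 9.82 and 8.95 in the same order of mice. It gave means of 7.90 ± 0.84 and 8.87 ± 0.71 (SD, n = 4 each) and a difference of 0.97 (SE 0.45, 95% interval -0.01 to 1.95, 1.96-fold). It did not pass the test either (limma adjusted p = 0.918, two-sided exact permutation p = 0.171). These 2 probes followed each other closely over the mice. The third, ILMN_1236724, was detected in Cd151+/+ mouse 2 alone, at 6.03 beside 4.90 to 5.02 in the other Cd151+/+ and 4.67 to 5.42 in the Cd151-/- mice, and its difference was -0.20 (limma adjusted p = 0.920).

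The array sets ran against each other in *Tnc* and *Spp1*. ILMN_2463181 was lower in the higher-background set, by -1.41, where *Spp1* was higher by 2.22. Within the sets its genotype difference was 0.71 (lower) and 1.03 (higher), and that of ILMN_2463180 was 0.79 and 1.15. With the set as a block both probes passed an unadjusted p of 0.05, and their limma adjusted p-values were 0.356 and 0.347. Leaving out 1 mouse at a time kept ILMN_2463181 between 0.46 and 1.19 and ILMN_2463180 between 0.63 and 1.23, but weighting the arrays by their quality gave 0.11 and 0.34.

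**Figure D2:**
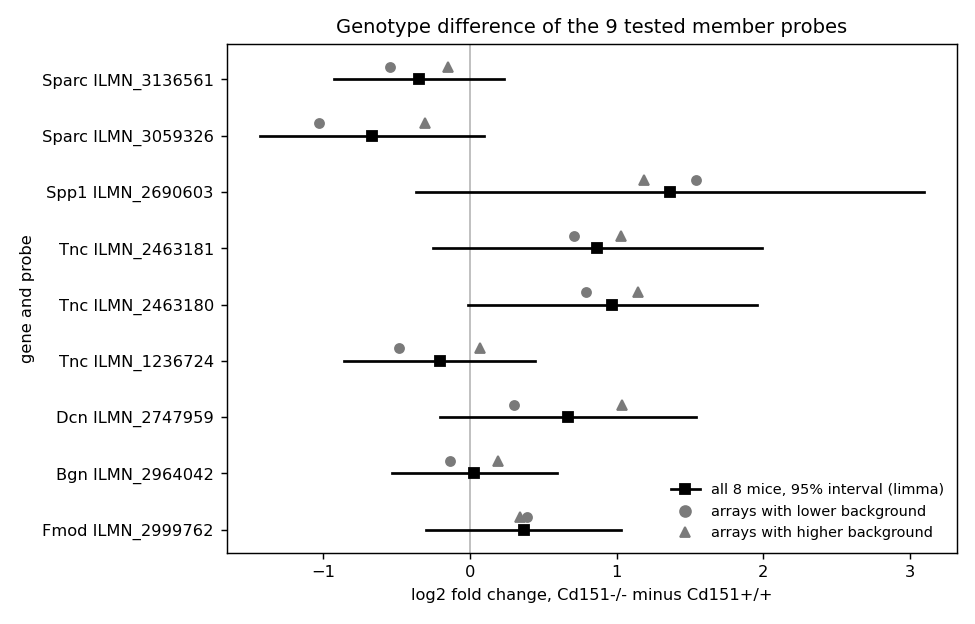
Log2 difference, Cd151-/- minus Cd151+/+ (horizontal axis), of each tested member probe with its 95% interval, and the differences within the lower-background and higher-background arrays as separate markers. Every interval spans 0, and *Spp1* has the widest, -0.37 to 3.10, while the set differences of *Spp1* and of the 2 brighter *Tnc* probes lie on the higher side in each set.

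*Spp1* and *Tnc* are the members with the largest differences, so the 250 bases that precede their transcription starts are shown, from RefSeq on GRCm38.p6, 5′ to 3′ on the gene's strand. On that assembly *Spp1* spans chr5:104435111-104441053 and *Tnc* spans chr4:63959785-64047015. Both strands were searched for 4 motifs, and capitals mark a match. The TATA box was searched as TATAA, and the motif named for its own letters as CCAAT. The GC box that SP1 family factors are known to bind was searched as GGGCGG. The site of AP-1 family factors was searched in its common form, TGANTCA.

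Spp1 (chr5:104434861-104435110, plus strand): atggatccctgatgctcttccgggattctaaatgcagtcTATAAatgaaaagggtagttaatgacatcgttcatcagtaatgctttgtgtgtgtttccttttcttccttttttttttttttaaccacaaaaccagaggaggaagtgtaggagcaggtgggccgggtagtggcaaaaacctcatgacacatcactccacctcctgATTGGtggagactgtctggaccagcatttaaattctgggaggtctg

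Tnc (chr4:64047016-64047265, minus strand): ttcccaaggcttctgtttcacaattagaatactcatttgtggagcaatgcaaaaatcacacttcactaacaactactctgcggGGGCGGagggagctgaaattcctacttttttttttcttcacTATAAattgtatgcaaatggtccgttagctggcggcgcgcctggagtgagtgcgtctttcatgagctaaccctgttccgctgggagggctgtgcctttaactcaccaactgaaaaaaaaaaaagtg

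The *Spp1* window held TATAA 211 bases before the start and CCAAT, on the reverse strand, 46 bases before it. The *Tnc* window held GGGCGG 167 bases and TATAA 126 bases before the start. Neither window held TGANTCA. Over 32851 windows of the same length in the same table, TATAA occurred in 22.8%, CCAAT in 33.8%, GGGCGG in 32.7% and TGANTCA in 6.75%, so these matches are a description of letters and no evidence of a bound factor. No measurement here bears on binding at either window.

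*Sparc* encodes osteonectin, a collagen-binding glycoprotein made by podocytes among other cells, and was the 1 member gene with a lower mean in Cd151-/- glomeruli. It spans chr11:55394159-55420080 on GRCm38.p6, the assembly of all positions given here. Its brightest probe, ILMN_3136561, read 15.08, 15.06, 14.36 and 14.85 in Cd151+/+ mice 1 to 4 and 14.14, 14.77, 14.89 and 14.16 in Cd151-/- mice 1 to 4. Cd151-/- mice 1 and 4 were the low ones, while Cd151+/+ mouse 3 lay below Cd151-/- mice 2 and 3. The means of 14.84 ± 0.33 and 14.49 ± 0.40 (SD, n = 4 each) differed by -0.35 (SE 0.26, 95% interval -0.93 to 0.23), which did not pass the test (limma adjusted p = 0.918, two-sided exact permutation p = 0.2). The second probe, ILMN_3059326, read 14.41, 14.21, 14.23 and 13.37 against 13.40, 13.59, 14.06 and 12.51 in the same order. Its lowest reading was Cd151-/- mouse 4, and Cd151+/+ mouse 4 lay among the Cd151-/- values. The difference was -0.67 (SE 0.35, 95% interval -1.43 to 0.10, 1.59-fold lower), which did not pass the test (limma adjusted p = 0.918, two-sided exact permutation p = 0.171).

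Both *Sparc* probes were lower in Cd151-/- mice within each set, by -0.54 and -0.15 for ILMN_3136561 in the lower and higher set and by -1.03 and -0.30 for ILMN_3059326. Without Cd151+/+ mouse 4 the difference of ILMN_3059326 was -0.90 (limma adjusted p = 0.720), and over all single omissions it ran from -0.90 to -0.37. Podocyte, endothelial and mesangial markers also had lower means. The 6 tested podocyte markers were all lower in Cd151-/- glomeruli by mean (median -0.21, 0 past an unadjusted p of 0.05), as had 8 of 10 endothelial markers (median -0.32, 0 past it) and 6 of 8 mesangial and mural markers (median -0.28), where *Pdgfrb*, the mesangial PDGF receptor, at -0.74 and smooth muscle actin *Acta2* at 0.71 passed the unadjusted threshold in opposite directions (limma adjusted p = 0.918 for each). *Kdr* was among the 8 lower endothelial markers although no Cd151-/- array detected it. Summed podocyte marker intensity was 102149 to 109124 in Cd151+/+ and 87538 to 110942 in Cd151-/- mice, and summed endothelial marker intensity 45204 to 55054 and 28423 to 55592. The lowest endothelial sum belonged to Cd151-/- mouse 4, the mouse lowest in ILMN_3059326. The part of cell composition in the *Sparc* difference was not tested.

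**Figure D3:**
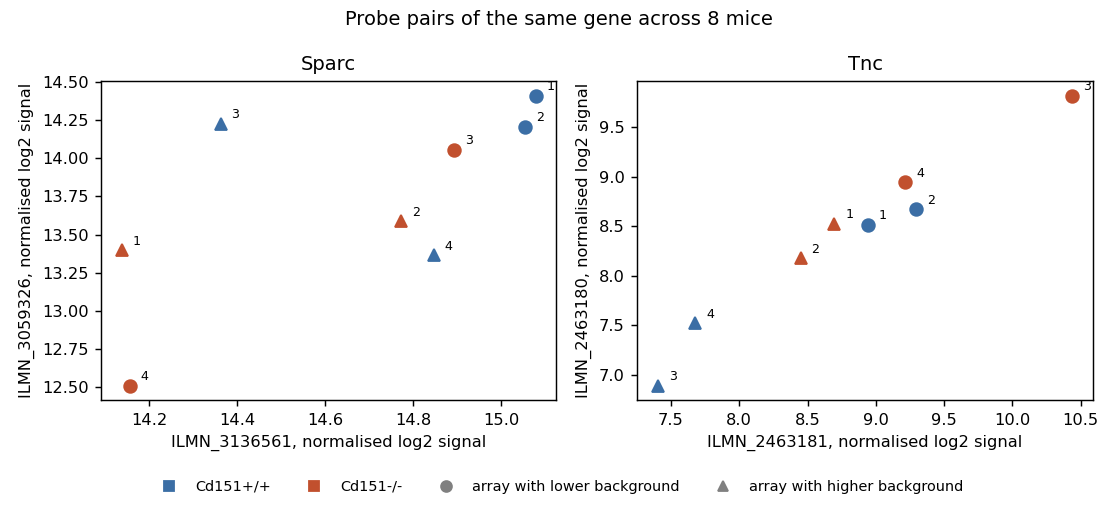
Normalised log2 signal of the 2 brighter probes of *Sparc* and of *Tnc*, one probe per axis and 1 point per mouse, coloured by genotype, with circles for lower-background and triangles for higher-background arrays. The *Tnc* probes fall close to a line (r = 0.98 after removing genotype means), while the *Sparc* probes scatter more (r = 0.52), with both mice numbered 4 low in ILMN_3059326.

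Among the proteoglycans *Dcn*, the gene of decorin, which coats collagen fibrils and binds TGF-beta, had the largest difference. It spans chr10:97479500-97518163, beside *Lum* at chr10:97565501-97572703. Its probe ILMN_2747959 was detected in all mice and read 6.87, 6.45, 7.28 and 7.33 in Cd151+/+ mice 1 to 4 and 8.41, 8.28, 7.34 and 6.58 in Cd151-/- mice 1 to 4. Cd151-/- mice 1 and 2 stood above all Cd151+/+ mice, mouse 3 was level with the highest of them, and mouse 4 was among the lowest. The means were 6.98 ± 0.41 and 7.65 ± 0.86 (SD, n = 4 each), with a difference of 0.67 (SE 0.40, 95% interval -0.20 to 1.54, 1.59-fold). It did not pass the test (limma adjusted p = 0.918, two-sided exact permutation p = 0.2). The difference was 0.30 in the lower and 1.04 in the higher set, and with the set as a block its limma adjusted p was 0.379. Single omissions gave 0.42 without Cd151-/- mouse 1, 0.46 without Cd151-/- mouse 2 and up to 1.03 without Cd151-/- mouse 4, and weighting the arrays by their quality gave 1.29. Without Cd151-/- mouse 4 it was 2.04-fold (limma adjusted p = 0.934).

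*Bgn*, the gene of biglycan, decorin's closest relative, at chrX:73483601-73495936, was detected in every mouse and was level between genotypes. It read 13.92, 13.92, 14.19 and 13.52 in Cd151+/+ and 14.06, 14.04, 14.24 and 13.34 in Cd151-/- mice 1 to 4. The lowest value in each genotype was mouse 4, and the other 6 mice lay close together. The difference of 0.03 had an SE of 0.25 and a 95% interval of -0.53 to 0.59 (limma adjusted p = 0.989, two-sided exact permutation p = 0.914), and it was -0.13 in the lower and 0.20 in the higher set.

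*Fmod*, the gene of fibromodulin, which carries keratan sulfate and binds type I collagen, spans chr1:134037254-134048280 and was near the detection limit. ILMN_2999762 was detected in 1 of 4 Cd151+/+ mice (mouse 4) and in 3 of 4 Cd151-/- mice (mice 1, 2 and 3). It read 5.24, 4.77, 5.02 and 5.43 against 5.56, 5.56, 6.10 and 4.69. The 3 detected Cd151-/- mice lay above all Cd151+/+ mice and Cd151-/- mouse 4 below them. The difference was 0.37 (SE 0.30, 95% interval -0.30 to 1.03), which did not pass the test (limma adjusted p = 0.918). Single omissions gave 0.16 without Cd151-/- mouse 3, 0.25 without Cd151+/+ mouse 2 and up to 0.63 without Cd151-/- mouse 4 (limma adjusted p = 0.934). Scaling to the 75th percentile gave 0.13, and since 3 of the 4 Cd151+/+ arrays did not detect the probe, no fold is given.

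Cd151-/- mouse 4 thus gave the lowest Cd151-/- value of *Dcn*, *Bgn*, *Fmod* and the second *Sparc* probe. Its summed leukocyte marker intensity was 5315, where the other Cd151-/- mice ranged from 2380 to 2743 and Cd151+/+ mice from 2161 to 2918. That sum was carried by *Cd74*, the MHC class II invariant chain, at 3484 in this mouse and 318 to 763 in Cd151+/+ mice, and without *Cd74* its sum was 1831, inside the Cd151+/+ range of 1738 to 2518. Fibroblast markers, which mark the cells best known for decorin, went no common way (4 higher, 3 lower of 7 tested, median 0.02). Among them *Col14a1*, a fibril-associated collagen, passed the unadjusted threshold (limma adjusted p = 0.918). It was detected on 3 Cd151-/- arrays and 0 Cd151+/+ arrays, so it entered the test through Cd151-/- mice alone. The genotypes overlapped. Against the lowest detected signal of each Cd151+/+ array, the Cd151-/- mean was 2.06-fold higher. The group means were 2.30 apart on the log2 scale in the lower set and 0.29 in the higher set. *Dpt* was detected on no array. Summed fibroblast marker intensity was 9869 to 14365 in Cd151+/+ and 7683 to 14011 in Cd151-/- mice. Their part in the *Dcn* and *Fmod* values was not tested.

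Fitting the array set as a block brought 4 of the 9 member probes under an unadjusted p of 0.05, all higher in Cd151-/- glomeruli and belonging to *Spp1*, *Tnc* and *Dcn*. Over all tested probes 5.21% were higher and 6.08% lower by the same criterion, and 0 member probes were lower. After adjustment 0 member probes passed, against 0.0535% of all. In 2 member probes, *Spp1* and ILMN_2463180 of *Tnc*, the Cd151-/- mice lay above the Cd151+/+ mice within both sets, as did 5.15% of all tested probes, and in 0 they lay below, as did 6.68%. The sets were drawn from the arrays' own background and each comparison within them is of 2 mice with 2.

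How the members varied among mice was described by Pearson's r of log2 signals over the 8 mice after subtracting genotype means. The 8 points share arrays, array sets and normalisation, and no test was made. The 2 brighter *Tnc* probes correlated at 0.98 and the 2 *Sparc* probes at 0.52, where *Sparc* ILMN_3059326 and *Bgn* correlated at 0.92. *Tnc* and *Dcn* were opposed, at -0.64, and with the array set also removed their r was 0.68. The pair of *Sparc* ILMN_3059326 and *Bgn* had an r of 0.98 after that removal. Of 7422 genes detected in every mouse, those most like *Sparc* ILMN_3136561 were *Ptpro* (0.984), a podocyte phosphatase, and *Akap12* (0.983), a listed parietal epithelial marker. Only the brightest probe of a member was ranked, so ILMN_3059326 was not. Those most like *Tnc* were *Uhrf2* (0.996) and *Ifrg15* (0.995), like *Dcn* were *Pbxip1* (0.989) and *Art3* (0.983), and like *Bgn* were *Dnmt3b* (0.991) and *Ctgf* (0.975). These are the top of a long ranking over 8 points.

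**Figure D4:**
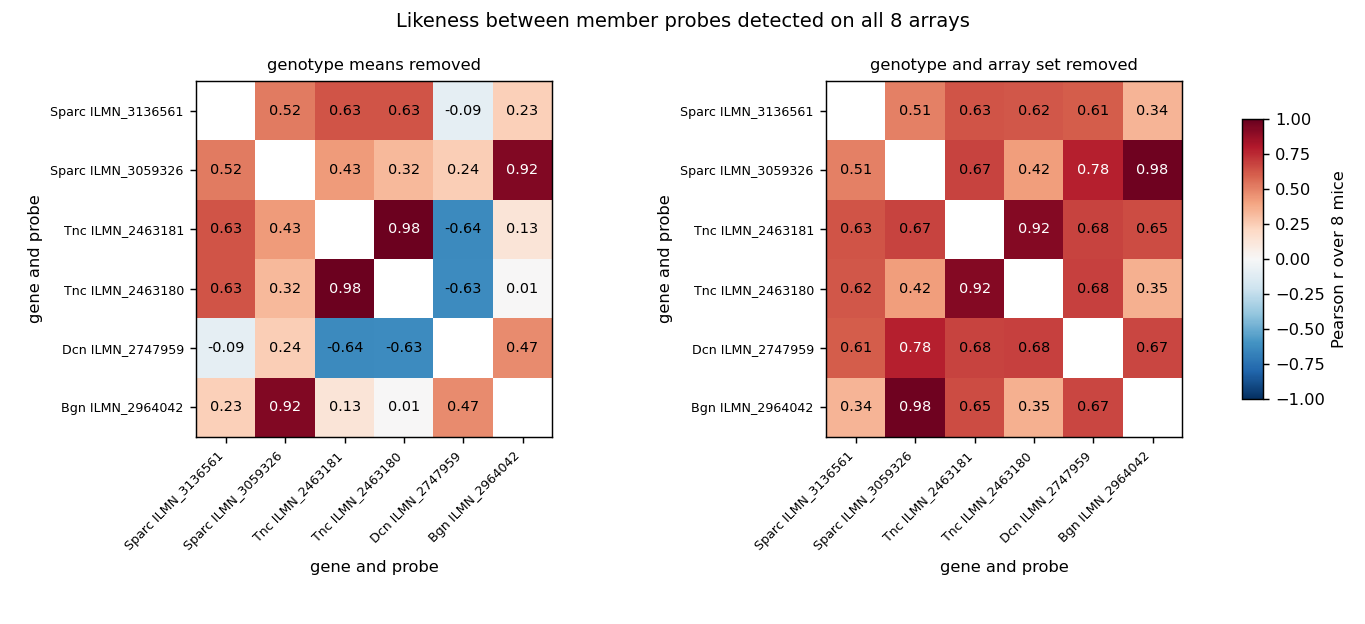
Pearson r over 8 mice between the 6 member probes detected on all arrays, after removing genotype means (left) and after removing the array set as well (right), on a colour scale from -1 to 1. The *Tnc* with *Dcn* cells read -0.64 on the left and 0.68 on the right, whereas the *Sparc* ILMN_3059326 with *Bgn* cell is 0.92 on the left and 0.98 on the right.

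Genes of the same families and their partners were counted in the same fit. Of 20 other matricellular genes 11 were tested, 7 higher and 4 lower in Cd151-/- glomeruli with a median log2 difference of 0.01. *Spock2* and *Vtn* were among the 4 lower although no Cd151-/- array detected them. *Ccn4*, listed on the array as *Wisp1*, a CCN family growth regulator, passed the unadjusted threshold at 0.60 (limma adjusted p = 0.918). *Ccn2*, listed as *Ctgf*, read 15.22 in both genotypes. Of 11 other small leucine-rich proteoglycans 3 were tested. *Prelp*, a proteoglycan of connective tissue that anchors basement membrane, read 6.61 ± 0.25 and 7.17 ± 0.26 (SD, n = 4 each), 0.56 higher in Cd151-/- mice (SE 0.22). It passed the unadjusted threshold but not the adjusted one (limma adjusted p = 0.918). *Ogn* (osteoglycin) differed by -0.10 and *Podn* (podocan) by 0.45, and neither passed.

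Of 17 receptors that bind the members, such as integrin chains, *Cd44*, *Egfr* and syndecan-4, 14 were tested, 8 higher and 6 lower, and 0 passed an unadjusted p of 0.05. *Itgb3* was among the 6 lower although no Cd151-/- array detected it. *Egfr*, a receptor that tenascin-C and decorin can engage, had a difference of 0.81 (limma adjusted p = 0.918), and *Cd44*, the osteopontin and hyaluronan receptor, one of 0.33. Of 16 fibrillar collagen and elastic fibre genes 10 were tested, 4 higher and 6 lower with a median of -0.18. The 6 lower included *Col1a2*, which no Cd151-/- array detected. *Ltbp2*, a latent TGF-beta binding protein family member of elastic fibres, was the 1 past the unadjusted threshold, at -0.51 (SE 0.21, limma adjusted p = 0.918). Detection held on 3 Cd151+/+ arrays and 1 Cd151-/- array, and the genotypes' values did not overlap. No gene of these 4 lists passed the adjusted threshold.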

How the data were processed

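Glomerular RNA of 8 mice was measured, 1 array each. The authors deposited signal intensity, neither background-subtracted nor normalised, with detection p-values per probe and array. The submitters' processing notes name GenomeStudio. The study's own values were further normalised by cubic spline, filtered on detection and tested by SAM. Here, limma 3.58.1 in R 4.3.3 applied neqc, with the background of an array inferred from its detection p-values (offset 16, quantile normalisation), which gives log2 values from the deposited intensity. Genotypes from the labels were compared by lmFit and eBayes over 14967 probes with a detection p of 0.05 or lower on at least 1 array, with Benjamini-Hochberg adjustment. Exact permutation tests used all 70 relabelings (smallest p 0.0286), as did SAM. The brightest probe stands for a gene. Named beyond the members were *Cd151*, the genes most like a member, and listed genes past an unadjusted p of 0.05, with some further markers and list genes chosen after their values were seen. The members and gene lists were chosen with earlier results of these data known. Scripts were tested on simulated data. Sequences and positions are from RefSeq tables matched by symbol. The number of arrays and the signal over background limit the precision.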

Additional observations from a re-analysis of the deposited data

Results flagged for a closer look

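1 value stood apart from the other mice of its genotype. *Tnc* probe ILMN_1236724 read 6.03 in Cd151+/+ mouse 2, where the other Cd151+/+ mice read 4.90 to 5.02, and the gap to the nearest of them was 0.894 of the group's range, past Dixon's critical value for 4 samples. It was the 1 array on which this probe was detected, while the 2 brighter *Tnc* probes read 9.29 and 8.67 in that mouse, the highest Cd151+/+ values but not set apart. Of 18 groups of 4 mice examined in this way 1 was picked out, and chance picks out about 1 in 20. That rate does not apply to this group, because the probe was tested only through its detection on the array picked out.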

How the results depend on the processing

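Over 20 alternatives, 160 of 166 member probe differences kept their sign and 0 reached an adjusted p of 0.05. The exceptions were *Bgn* (-0.0049 with cubic spline normalisation, and -0.090 to 0.23 over single omissions, below 0 without Cd151+/+ mouse 4 or Cd151-/- mouse 1, 2 or 3) and *Tnc* ILMN_1236724 (-0.34 to 0.063 over single omissions, above 0 without Cd151+/+ mouse 2, the 1 detected array). Member probes past an unadjusted p of 0.05 numbered 0, but 4 with the array set as block (*Spp1*, *Dcn* and both brighter *Tnc* probes), 4 with array weights (*Spp1*, *Dcn* and both *Sparc* probes) and 1 with a trended robust variance. With array weights *Spp1* was 2.68, *Dcn* 1.29, *Tnc* ILMN_2463181 0.11 and ILMN_2463180 0.34. Over single omissions they numbered 0 to 2, with 1 without Cd151+/+ mouse 1 or Cd151-/- mouse 2 and 2 without Cd151+/+ mouse 2 or 4 or Cd151-/- mouse 3 or 4. Non-overlapping members numbered 1 with no detection filter and 0 to 2 over single omissions (1 without Cd151+/+ mouse 4, 2 without Cd151-/- mouse 4). In these omissions only the mouse left out had kept the genotypes from separating, so the separation followed from the choice of mouse. The same share over all tested probes was not counted. The members' median was 0.17 with no detection filter, which lets in undetected genes, 0.31 without Cd151-/- mouse 3, 0.31 with no background correction and 0.29 with array weights, against 0.52. Probes past the adjusted p numbered 8 with the array set as block and 91 by SAM (6 higher, 85 lower, false discovery rate 0.197) against 5. Other causes were not tested.

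Same-numbered mice had deviation correlations of -0.58 to -0.0086, and 0 of 8 arrays correlated best with their own number. Same-numbered arrays always lay in opposite array sets, so these values cannot tell whether the mouse numbers pair the arrays. With the number as a replicate block 1 member probe passed an unadjusted p of 0.05, and 4 of all probes passed the adjusted threshold.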
